A study of Mus musculus with 8 samples.

Results

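The 7 genes described here belong to the Ms4a family, which encodes membrane-spanning proteins of blood cells. They are Ms4a3, Ms4a4b, Ms4a4c, Ms4a6b, Ms4a6c, Ms4a6d and Ms4a7, taken by symbol from a table of 21878 gene symbols. All 7 had a row, 6 had at least 1 read, and 5 had enough reads to be tested. Blood was taken from 8 wild-type female C57BL/6 mice aged 6 to 8 weeks. The 4 mice of the stress group were restrained for 6 hours in a plastic tube with air holes, and the 4 of the control group were littermates that stayed in their cage. Neither group had food or water in that time. RNA came from whole blood, so every value below is a sum over all leukocytes, platelets and red cells, and the difference between fewer cells of a type and less RNA per cell cannot be told apart. The labels name the samples as replicates of a group, with 1 library each.

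Proteins of the MS4A family cross the membrane several times and sit in the plasma membrane or in endosomes, where several of them bind to immune receptors and tune their signalling. The best known are CD20 of B cells, encoded by Ms4a1, and the beta chain of the high-affinity IgE receptor of mast cells and basophils, encoded by Ms4a2. The genes lie side by side, and the family has grown by duplication, so that the mouse holds several copies of the MS4A4 and MS4A6 type. Individual members are known for different cells: Ms4a3 for granulocyte-monocyte progenitors, Ms4a4b for T cells and NK cells, Ms4a6b for T cells and regulatory T cells, Ms4a4c and Ms4a6c for monocytes among other cells, and Ms4a6d and Ms4a7 for macrophages.

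All 7 members lie on chromosome 19 of GRCm38 (the mm10 build) in the GENCODE M21 annotation. From the first base of Ms4a7 to the last base of Ms4a3 they span positions 11321039 to 11640851. Ms4a4c (11404770 to 11427246), Ms4a4b (11443553 to 11467055), Ms4a6c (11469366 to 11482192) and Ms4a6b (11516512 to 11531256) lie on the plus strand. Ms4a7 (11321039 to 11336146), Ms4a6d (11586604 to 11604849) and Ms4a3 (11629496 to 11640851) lie on the minus strand. Exons of Ms4a4c, Ms4a6b and Ms4a6c overlap genes annotated on the opposite strand (Gm5692, Gm19261 and BE692007). The use of strand in the counting is not stated, so reads of a member and of its antisense partner cannot be told apart.

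Because the copies are so alike, the coding sequences were compared to see which members a short read can separate. Over the aligned coding bases of 1 transcript per gene, Ms4a4b and Ms4a4c were 91.7% identical, Ms4a6b and Ms4a6c 85.4%, Ms4a6b and Ms4a6d 81.2%, and Ms4a6c and Ms4a6d 79.0%. The other pairs of members were 59.1% to 65.9% identical. Ms4a4b and Ms4a4c shared an unbroken run of 127 coding bases, and the following 90 bases of exon 5 (chr19:11459161-11459250 in Ms4a4b and chr19:11419001-11419090 in Ms4a4c, GRCm38, plus strand) are the same in both, with 0 positions that differ, so they are printed in lower case throughout:
Ms4a4b: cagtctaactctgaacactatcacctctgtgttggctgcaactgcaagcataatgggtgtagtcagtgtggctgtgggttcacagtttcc
Ms4a4c: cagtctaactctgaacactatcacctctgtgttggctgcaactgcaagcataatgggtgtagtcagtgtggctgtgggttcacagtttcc

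The most alike 90 coding bases of the 3 genes of the MS4A6 type (coding positions 90 to 179 in each, counted from 1 at the start codon) differ at 7 positions, set in capitals below. The capitals mark each position where any of the 3 differs. At most of them Ms4a6d, the called member, has the same base as Ms4a6b or Ms4a6c. The stretches lie at chr19:11520428-11521702 (Ms4a6b, plus strand, exons 3 to 4), chr19:11471194-11472424 (Ms4a6c, plus strand, exons 2 to 3) and chr19:11601933-11603203 (Ms4a6d, minus strand, exons 2 to 3), each across an intron:
Ms4a6b: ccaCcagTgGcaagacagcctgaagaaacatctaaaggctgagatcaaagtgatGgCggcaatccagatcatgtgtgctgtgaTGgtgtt
Ms4a6c: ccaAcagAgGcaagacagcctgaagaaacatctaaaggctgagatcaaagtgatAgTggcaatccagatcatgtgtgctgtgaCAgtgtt
Ms4a6d: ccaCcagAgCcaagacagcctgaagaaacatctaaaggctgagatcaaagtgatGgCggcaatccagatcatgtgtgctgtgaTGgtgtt

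Of all stretches of 50 bases in the transcript of Ms4a6d, 2.92% also occur, on either strand, in a transcript of another gene (Ms4a6b or Gm10212), and of all stretches of 100 bases 0.0%. For Ms4a4b the shares were 4.19% and 0.882%, for Ms4a4c 8.48% and 1.72%, and for Ms4a6b 5.89% and 0.0%. Ms4a6c stood apart with 56.9% and 51.3%, at 100 bases with BE692007, on the opposite strand, and Prdm11. Ms4a3 and Ms4a7 shared 0.0% at both lengths. The length of the reads is not given in the sources used here.

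The 250 bases before the RefSeq start of the closest pair are also alike, with 80.1% of 231 aligned bases identical (GRCm38.p6, plus strand, chr19:11443308-11443557 for Ms4a4b and chr19:11407411-11407660 for Ms4a4c). They are shown as the windows of the pair with the most alike coding sequences, and their part in the counts was not tested. Capitals mark their longest shared run, of 20 bases:
Ms4a4b: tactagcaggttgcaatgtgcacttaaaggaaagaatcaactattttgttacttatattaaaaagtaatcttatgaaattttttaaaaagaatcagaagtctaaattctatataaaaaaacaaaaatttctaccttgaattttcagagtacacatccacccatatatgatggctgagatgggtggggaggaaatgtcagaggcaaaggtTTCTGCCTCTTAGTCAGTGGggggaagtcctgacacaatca
Ms4a4c: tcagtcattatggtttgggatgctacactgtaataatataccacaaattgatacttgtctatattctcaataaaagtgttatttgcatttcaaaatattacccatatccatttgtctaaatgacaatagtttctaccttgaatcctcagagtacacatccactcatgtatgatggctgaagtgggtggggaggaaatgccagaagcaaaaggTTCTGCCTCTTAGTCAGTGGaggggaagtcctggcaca

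RefSeq entries for this window were found for 6 of the 7 members, all but Ms4a6d, and 5 sets of letters were searched in them on both strands. The single site of the glucocorticoid response element, AGAACA, occurred once each in Ms4a6b, Ms4a3 and the second of the 2 windows of Ms4a7, against 16.1% of 32851 windows of the same length. TGTGGT, bound by RUNX factors, occurred once, in Ms4a4c (14.0% of all windows). The full palindromic glucocorticoid response element (0.00913% of all windows), GAGGAAG of PU.1 (10.6%) and TTGCNNAA of C/EBP factors (9.56%) were not among the letters of these windows. The single site is contained in the full element.

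The libraries held 31471145 to 39014775 counts in the control group and 25978683 to 29655725 in the stress group. Haemoglobin genes took 51.9% to 63.8% of them in the control group and 61.2% to 75.5% in the stress group, so that 11409246 to 18771951 and 6352711 to 11007593 counts remained for all other genes. Levels are given as CPM, counts in 1000000 of a library size scaled by TMM, a factor that takes most genes as unchanged. For the 11718 tested genes (10 counts or more in 4 or more samples) the median log2 fold change was -0.03 with TMM, against -0.82 where libraries were scaled by total counts alone. Differences are log2 fold changes of stress over control from edgeR's quasi-likelihood test, with p-values adjusted over all 11718 genes, and a gene was called where the log2 fold change exceeded 1 in size and the adjusted p was under 0.01. These are also the thresholds that the study used.

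The summed counts of the 7 members ranged from 6780 to 16387 in the control libraries and from 2965 to 6628 in the stress libraries, and Ms4a4b and Ms4a6b made up most of them. Ms4a4b took 37.4% ± 1.53 of this sum in control and 35.9% ± 5.58 in stress samples, Ms4a6b 35.6% ± 0.330 and 35.0% ± 1.10, Ms4a6c 16.02% ± 0.533 and 17.1% ± 4.73, and Ms4a4c 10.6% ± 1.33 and 10.5% ± 1.34 (SD, n = 4 per group). Ms4a6d took 0.369% ± 0.143 and 1.40% ± 0.655, from 0.207% to 0.555% in the control samples and from 0.658% to 2.10% in the stress samples. These shares do not depend on how libraries are scaled to each other, and that of Ms4a6d did not overlap between the groups. It is not independent of the ratios of Ms4a6d to the other members given below. For such ratios, 19.2% of all pairs of tested genes did not overlap either.

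Per kilobase of transcript, the level in the control group was highest for Ms4a6b, at 29.9 ± 1.29 CPM per kilobase, followed by Ms4a6c (19.5 ± 0.993), Ms4a4b (17.6 ± 0.614), Ms4a4c (13.9 ± 2.29) and Ms4a6d (0.592 ± 0.254; SD, n = 4 each). The control samples of neighbours in this order did not overlap, although those of Ms4a4b (17.1 to 18.5) and Ms4a4c (11.8 to 17.1) nearly met. In the stress group the means had the same order, 27.8 ± 1.37, 19.8 ± 5.69, 16.1 ± 2.44, 12.9 ± 2.02 and 2.12 ± 1.02 CPM per kilobase. There Ms4a6c (13.7 to 25.6), Ms4a4b (13.3 to 18.8) and Ms4a4c (10.1 to 14.4) overlapped. The order depends on the length used: per kilobase of all annotated exons together, Ms4a6b (17.8 ± 0.770) and Ms4a6c (17.5 ± 0.891) overlapped in the control group, and Ms4a4b (9.55 ± 0.332) came after Ms4a4c (13.6 ± 2.25). Of all stretches of 100 bases in Ms4a6c, 51.3% also occur in another gene. How reads from them were counted is not stated, so the place of Ms4a6c in the order is uncertain.

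Ms4a6d, a macrophage member of the family, was the only one of the 5 tested members that was called, and it rose. Its counts were 29, 42, 91 and 14 in control replicates 1 to 4 and 102, 28, 32 and 118 in stress replicates 1 to 4. Its level was 0.788, 0.813, 1.31 and 0.442 CPM in the control samples and 4.55, 1.30, 2.43 and 3.78 CPM in the stress samples. The groups met at a single point, since stress replicate 2 lay just under control replicate 3, and the other 3 stress samples lay above all controls. The mean was 0.839 ± 0.360 CPM in control and 3.01 ± 1.44 CPM in stress samples (SD, n = 4), which edgeR's quasi-likelihood test fitted as a 3.51-fold rise (log2 fold change 1.81, standard error 0.39, 95% interval 0.98 to 2.65, adjusted p = 0.00891). Among all tested genes, 1.69% were called up and 0.0171% down. On total counts alone the log2 fold change was 1.015 (adjusted p = 0.0372, edgeR), against the median of -0.82 for all genes, and the gene was not called. With its 14 to 118 reads per library it was the least covered of the tested members, and the call rests on a small margin: it was kept in 2 of the 8 fits that left out 1 sample (those without control replicate 3 and without stress replicate 2) and lost without any of the other 6, at adjusted p-values of up to 0.0328 and log2 fold changes of 1.58 to 2.13 over the 8 fits.

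**Figure D1:**
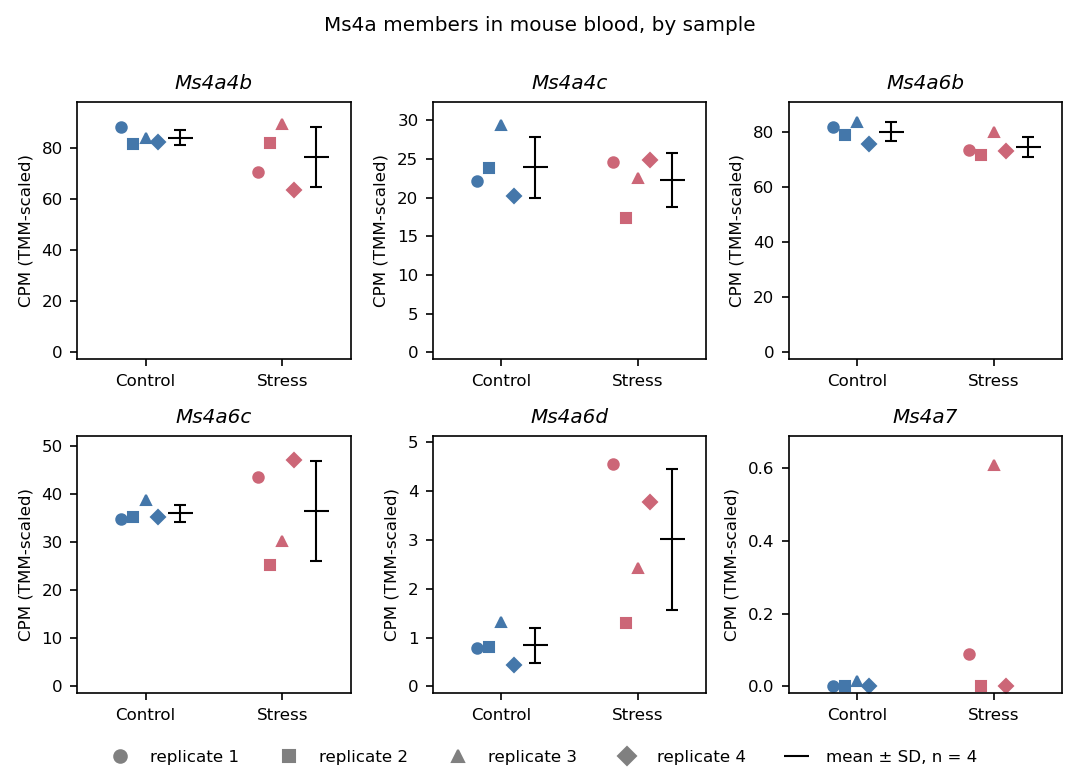
CPM (TMM-scaled, linear axes, 1 panel per gene) of the 6 members with a read, by group, with a marker shape for each replicate and a bar for the mean ± SD of 4 samples (none drawn for Ms4a7, with its few reads). Ms4a6d goes from 0.839 to 3.01 CPM while the control and stress samples of Ms4a4b, Ms4a4c, Ms4a6b and Ms4a6c overlap, and Ms4a7 lies at 0.607 CPM in stress replicate 3.

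Ms4a6b, known from T cells and regulatory T cells, had 75.7, 79.0, 81.7 and 83.7 CPM in the control samples in rising order and 71.7, 73.1, 73.4 and 79.9 CPM in the stress samples. The groups overlapped through 1 stress sample, replicate 3. The mean was 80.0 ± 3.45 CPM in the control group and 74.5 ± 3.67 CPM in the stress group (SD, n = 4 each), a log2 fold change of -0.10 with a 95% interval of -0.32 to 0.11 (adjusted p = 0.519, edgeR's quasi-likelihood test). In the stress group its SD was smaller relative to its mean than that of the other 4 tested members, and in the control group that of Ms4a4b was smaller (2.92 CPM at a mean of 83.8 CPM).

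Ms4a4b, which T cells and NK cells carry, had 87.9, 81.4, 83.8 and 82.2 CPM in control replicates 1 to 4 and 70.7, 81.8, 89.5 and 63.3 CPM in stress replicates 1 to 4. The stress samples lay on both sides of the controls, with replicate 3 above all of them and replicates 1 and 4 below. The log2 fold change was -0.14 with a 95% interval of -0.40 to 0.13 (adjusted p = 0.477, edgeR). On total counts alone all 4 stress samples (45.4 to 69.7 CPM) lay below all 4 control samples (82.7 to 148.6 CPM), with a log2 fold change of -0.97 (adjusted p = 0.0152, edgeR), near the median of -0.82 for all genes.

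Ms4a4c had 22.1, 23.8, 29.4 and 20.2 CPM in control replicates 1 to 4 and 24.6, 17.4, 22.5 and 24.9 CPM in stress replicates 1 to 4. The groups overlapped, with control replicate 3 above all stress samples and stress replicate 2 below all controls, and the log2 fold change was -0.10 with a 95% interval of -0.40 to 0.20 (adjusted p = 0.672, edgeR's quasi-likelihood test). Ms4a6c, a monocyte member, had 34.8, 35.1, 38.7 and 35.3 CPM in control replicates 1 to 4 and 43.4, 25.1, 30.1 and 47.1 CPM in stress replicates 1 to 4. Its control samples were close together and its stress samples spread to both sides, 2 above and 2 below all controls, with an SD of 1.83 CPM in the control group and 10.5 CPM in the stress group. The means of 36.0 and 36.4 CPM gave a log2 fold change of 0.02 with a 95% interval of -0.34 to 0.39 (adjusted p = 0.942, edgeR). Its sign turned with the scaling, to -0.71 on total counts alone (adjusted p = 0.0686, edgeR).

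At an adjusted p below 0.05 without a fold threshold, 1 of the 5 tested members was higher in the stress group and 0 were lower (at an unadjusted p under 0.05 also 1 and 0), against 10.4% and 3.69% of all tested genes. At the thresholds that the study used, DESeq2 called the same single member up and none down. Limma-voom called none at those thresholds, with Ms4a6d at an adjusted p of 0.0184. In none of the 5 did the groups part completely in CPM, against 11.1% of all tested genes with every stress sample higher and 9.88% with every stress sample lower.

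**Figure D2:**
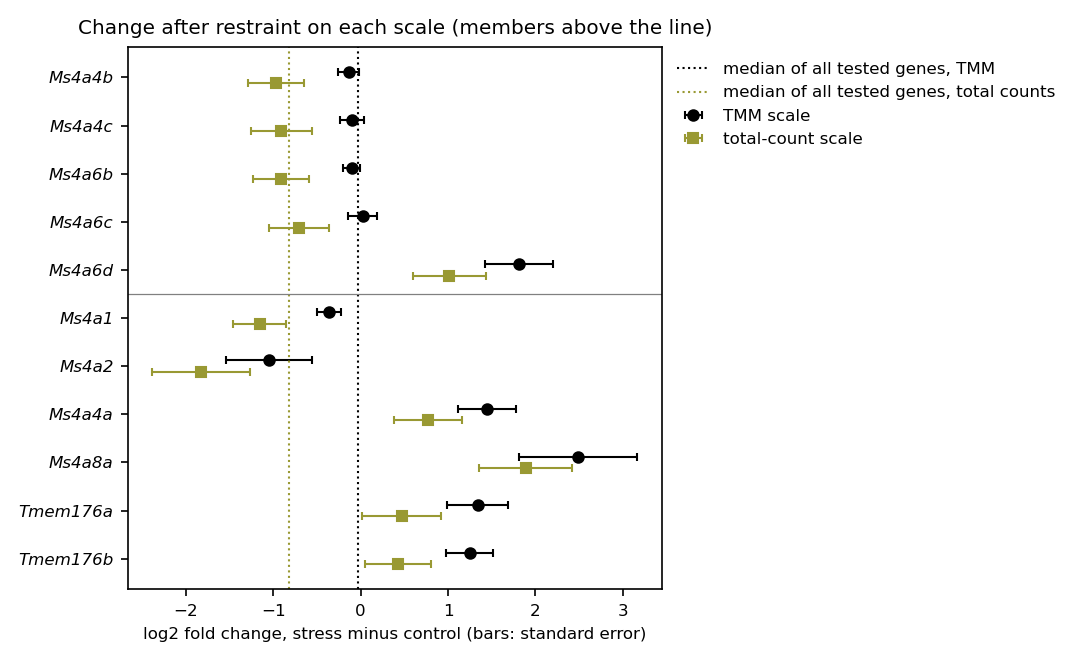
Log2 fold change of stress over control (horizontal axis, bars are standard errors of edgeR's fit) for the 5 tested members, above the line, and 6 related genes, below it, on the TMM scale (circles) and the total-count scale (squares), with dotted lines at the median of all tested genes on each scale. Ms4a6d is at 1.81 and 1.015, and the other 4 members lie near the median on either scale.

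Ms4a3 and Ms4a7 did not pass the filter on low counts. Ms4a3 had 0 counts in each of the 8 libraries, which allows up to 3 counts or 0.0434 to 0.228 CPM per library (counting error only). The progenitor genes Mpo, which encodes myeloperoxidase, and Elane, which encodes neutrophil elastase, had at most 8 and 2 counts in any library. Ms4a7, known from macrophages, had 0, 0, 1 and 0 counts in the control samples and 2, 0, 8 and 0 counts in the stress samples, so that 1 library alone, stress replicate 3 with 0.607 CPM, stood above the limit of 3 counts. Without that filter Ms4a7 had an adjusted p of 0.108 (edgeR), DESeq2 gave it an unadjusted p of 0.0183 and no adjusted p, and Ms4a3 could not be tested. A change of these genes was not detectable at this depth.

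The ratio of 2 members within a library needs no scaling between libraries. For every 100 counts of Ms4a6c, the libraries held 2.27, 2.31, 3.40 and 1.25 counts of Ms4a6d in control replicates 1 to 4 and 10.5, 5.17, 8.06 and 8.02 in stress replicates 1 to 4. All 4 stress samples lay above all 4 controls, with a difference of 1.81 on the log2 scale (p = 0.0286 by a two-sided exact permutation test, which cannot go lower with 4 samples against 4). The same held for Ms4a6d against Ms4a4b (0.537 to 1.57 in the control group and 1.59 to 6.43 in the stress group per 100 counts, a log2 difference of 1.93), against Ms4a4c (2.18 to 4.47 and 7.49 to 18.5, 1.89) and against Ms4a6b (0.584 to 1.57 and 1.81 to 6.20, 1.89; same test and p). The gap was narrow against Ms4a4b, where control replicate 3 and stress replicate 2 nearly met.

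Among the other 4 members, none of the 6 ratios parted the groups. Their differences lay between -0.00 and 0.12 on the log2 scale, with exact permutation p-values from 0.629 to 0.943. Ms4a4c stood at 24.6 to 35.1 counts per 100 counts of Ms4a4b in the control group and 21.2 to 39.3 in the stress group. Ms4a6b stood at 92.0 to 99.8 and 87.6 to 115.5 per 100 counts of Ms4a4b. The ratio of Ms4a6c to Ms4a6b spread more in the stress group (35.1 to 64.4 per 100) than in the control group (42.6 to 46.6 per 100). In all, 4 of 10 ratios did not overlap between the groups, all 4 of them with Ms4a6d in the numerator and so not independent of each other, against 19.2% of the 68649903 pairs of tested genes. These p-values are not adjusted for the 10 ratios, and the 11 pairs with Ms4a3 or Ms4a7 have no ratio because of their low counts.

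**Figure D3:**
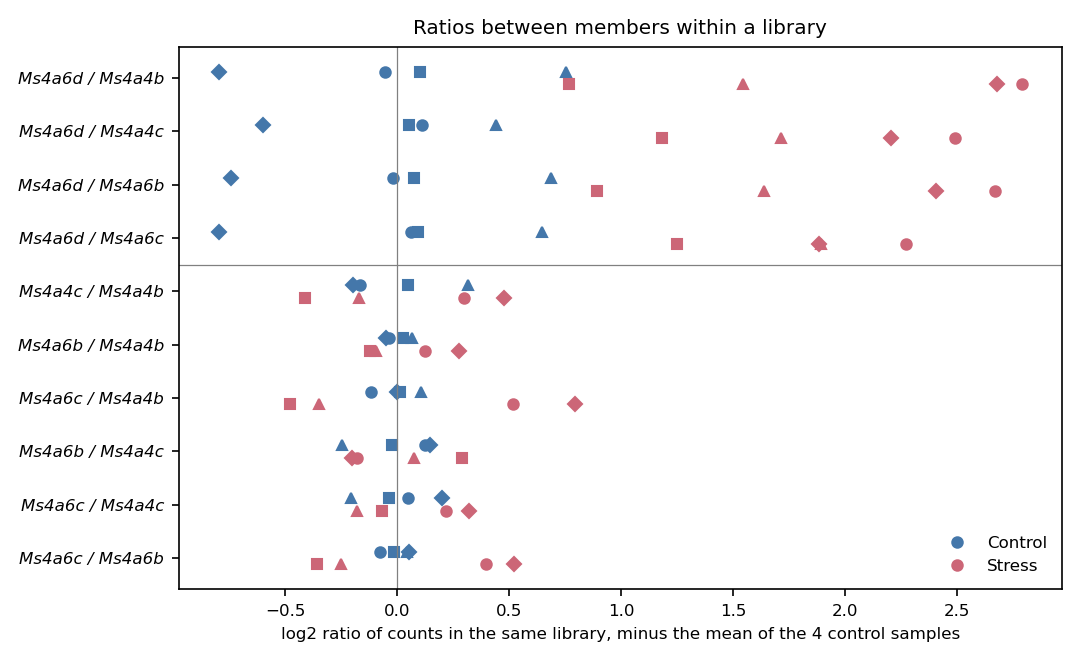
Log2 ratio of the counts of 2 members in the same library, minus the mean of the 4 control samples, for 10 pairs; each point is a library, with the replicate shapes of the plot of CPM by group. In the upper 4 pairs, those with Ms4a6d, the stress samples lie to the right of the control samples with a mean difference of 1.81 to 1.93, and in the lower 6 pairs they overlap.

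To set the members against leukocyte RNA, their counts were divided by the summed counts of 6 genes that most leukocytes express (Ptprc, which encodes CD45, Coro1a, Cd53, Laptm5, Arhgdib and Rac2). The log2 fold changes of these 6 genes themselves were -0.19 to 0.25 on the TMM scale, with adjusted p-values from 0.249 to 0.942 (edgeR). Per 1000 of these counts, Ms4a6d stood at 0.495, 0.498, 0.782 and 0.274 in control replicates 1 to 4 and at 2.69, 0.779, 1.38 and 2.24 in stress replicates 1 to 4. On this measure stress replicate 2 and control replicate 3 were again almost level, and since a pseudocount of 0.5 was added to the counts before the log2 ratio was tested, that test placed all stress samples above all controls (log2 difference 1.72, two-sided exact permutation test, p = 0.0286). Ms4a6b stood at 49.1 ± 1.80 in control and 43.8 ± 1.00 in stress samples (SD, n = 4), without overlap and with the same p (log2 difference -0.17). With Ptprc alone as the reference the difference of Ms4a6b turned to 0.10 (exact permutation p = 0.429), so its direction depends on the reference. On this measure all 4 stress samples were higher for 8.85% and lower for 14.1% of the tested genes. Ms4a4b (51.5 ± 2.53 and 44.8 ± 6.16), Ms4a4c (14.6 ± 2.07 and 13.1 ± 2.02) and Ms4a6c (22.1 ± 0.643 and 21.4 ± 6.32) overlapped between the groups.

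Lists of cell type markers show what else differed between these libraries. Of 10 markers of classical monocytes, 8 were called up, and their summed level was 125.1 to 157.6 CPM in the control group and 255.7 to 523.9 CPM in the stress group, lowest among the stress samples in replicate 2, as was Ms4a6d. The sums of the neutrophil, non-classical monocyte, B cell, basophil and progenitor lists were also lowest in stress replicate 2 among the stress samples. Of 11 tested neutrophil markers 7 were called up (190.3 to 376.5 and 589.5 to 862.1 CPM for all 12), and of 7 platelet markers 3 (1260.0 to 1912.0 and 2916.0 to 3544.0 CPM). The median log2 fold changes of the tested markers of these 3 lists were 1.64, 1.48 and 0.99, against -0.03 for all genes. No marker of these lists was at 0 in all libraries, and their part in the change of Ms4a6d was not tested. Of 11 markers of non-classical monocytes 0 were called (203.6 to 260.6 and 174.9 to 244.0 CPM), although 4 were lower at an adjusted p below 0.05 without a fold threshold (edgeR).

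The lists of lymphocytes are set beside Ms4a4b and Ms4a6b. The summed level of 12 T cell markers was 612.9 to 658.3 CPM in the control group and 553.0 to 690.5 CPM in the stress group, with 0 called, and that of 9 NK cell markers was 78.9 to 126.2 and 67.5 to 148.0 CPM, with 0 called. In stress replicates 1 to 4 the T cell sum was 553.0, 690.5, 656.8 and 565.8 CPM and the NK cell sum 75.9, 73.0, 148.0 and 67.5 CPM. Among the stress samples Ms4a4b was highest in replicate 3, as was the NK cell sum, and lowest in replicate 4. The control samples did not show this match. There the NK cell sum was 78.9, 87.0, 94.8 and 126.2 CPM in replicates 1 to 4, and Ms4a4b was highest in replicate 1 (87.9 CPM). In stress replicate 2 the NK cell sum was low (73.0 CPM) but Ms4a4b was not (81.8 CPM). Ms4a6b was also highest in stress replicate 3 (79.9 CPM). Its values in stress replicates 1, 2 and 4 were close together (73.4, 71.7 and 73.1 CPM). The lowest of them, in replicate 2, stood beside the highest T cell sum (690.5 CPM). B cell markers were 960.1 to 1179.0 and 650.3 to 860.4 CPM, without overlap, with 0 of 9 called and 6 lower at an adjusted p below 0.05 (edgeR). Of 7 progenitor markers 2 were tested and 0 called, with a sum of 1.14 to 1.51 and 1.16 to 2.66 CPM. The 6 basophil markers summed to 7.57 to 7.95 and 11.97 to 17.0 CPM. Only 1 of the 3 tested markers was higher, and it was called up. The 2 others had negative log2 fold changes, among them Cpa3 (-0.48, standard error 0.49, adjusted p = 0.543, edgeR). On the log2 scale the middle value of the 3 was -0.009, so the higher sum does not stand for the list as a whole. The defining Mcpt8, a basophil protease, had at most 10 counts in any library. The median log2 fold changes were -0.09 for T cell, -0.16 for NK cell and -0.51 for B cell markers. Of 5 red cell genes 0 were called, although all 5 were higher (median log2 fold change 1.06), 1 of them at an adjusted p below 0.05 (edgeR). Their summed level overlapped between the groups. The part of these lists in the values of the members was not tested.

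Other rows of the family numbered 14 (12 Ms4a genes and the structurally related Tmem176a and Tmem176b), of which 9 had a read and 6 were tested. With the rule of the study 1 of the 6 was called up, Tmem176b, and 0 down. At an adjusted p below 0.05 without a fold threshold 4 were higher (Ms4a4a, Ms4a8a, Tmem176a and Tmem176b) and 0 lower (edgeR, against 10.4% and 3.69% of all tested genes). Tmem176b, a cation channel of endolysosomes in dendritic cells and other myeloid cells, was at 1.79, 1.72, 2.36 and 1.67 CPM in control replicates 1 to 4 and at 6.11, 2.23, 5.46 and 4.42 CPM in stress replicates 1 to 4. Stress replicate 2 was again the low one, inside the range of the controls, and the log2 fold change was 1.25 (standard error 0.27, adjusted p = 0.0089, edgeR). The call of Tmem176b was lost on total counts alone (log2 fold change 0.43, adjusted p = 0.324, edgeR) and in 7 of the 8 fits without 1 sample (1.10 to 1.39, adjusted p = 0.0148 to 0.0377), and kept without stress replicate 2 (1.51, adjusted p = 0.0019).

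Tmem176a, its neighbour on chromosome 6, was at 0.379 to 1.17 CPM in the control samples and at 1.505 to 2.77 CPM in the stress samples, without overlap (log2 fold change 1.34, adjusted p = 0.0227, edgeR). Ms4a4a, a macrophage surface protein of the family, was at 1.16 to 1.96 CPM in the control group and at 4.86, 1.53, 3.42 and 5.76 CPM in stress replicates 1 to 4 (log2 fold change 1.45, standard error 0.34, adjusted p = 0.0139, edgeR). Its stress replicate 2 lay among the controls, the other 3 above. Ms4a8a, a macrophage gene, was at 0.174 to 0.410 CPM in the control group and at 2.59, 0.139, 0.759 and 2.82 CPM in stress replicates 1 to 4, so that stress replicate 2 lay below all controls (log2 fold change 2.49, standard error 0.68, adjusted p = 0.0315, edgeR). With DESeq2 all 4 were called up, and likewise Ms4a4a, Ms4a8a and Tmem176b in the edgeR fit without stress replicate 2. With limma-voom none of the 4 was called by the rule of the study. There Ms4a4a, Tmem176a and Tmem176b had adjusted p-values of 0.0279, 0.0219 and 0.0181, and Ms4a8a had 0.158. On total counts alone Ms4a8a was called up (log2 fold change 1.89, adjusted p = 0.00926, edgeR). Ms4a4a and Tmem176a were not called on that scale (adjusted p = 0.0808 and 0.361, edgeR). Without control replicate 2, Tmem176b alone stayed below an adjusted p of 0.05 (Ms4a4a 0.052, Ms4a8a 0.0804 and Tmem176a 0.0772, edgeR). Over the 8 edgeR fits that left out 1 sample, Ms4a8a was above 0.05 in 5 (those without control replicates 1, 2 and 3 and stress replicates 1 and 4), Tmem176a in 2 (without control replicate 2 and stress replicate 1, adjusted p = 0.0669) and Ms4a4a in 1. Among the 11 tested genes of the family, 8 had their lowest stress sample in replicate 2, Ms4a6b by a small margin (71.7 against 73.1 CPM in replicate 4). The share of all tested genes that were lowest in that library was not determined. The count is therefore not read as a trait of the family, and several marker sums were lowest there too.

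**Figure D4:**
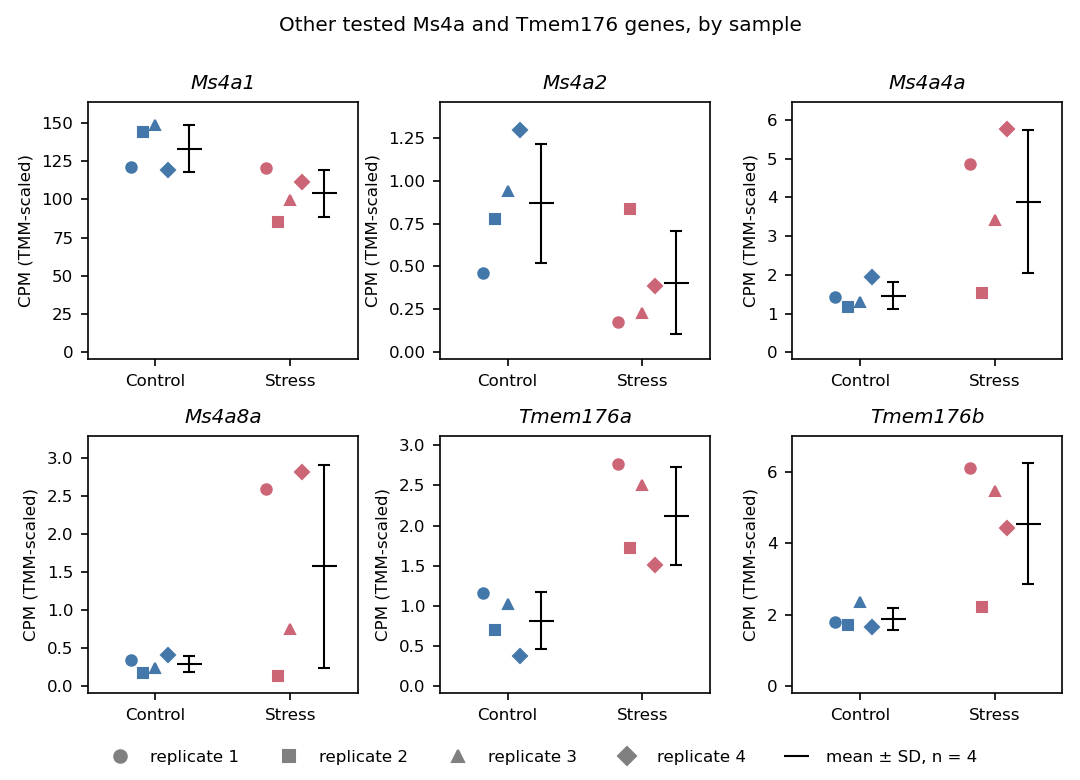
CPM (TMM-scaled, linear axes, 1 panel per gene) of the 6 tested genes of the family that are not among the 7, by group, with a marker shape for each replicate and a bar for the mean ± SD of 4 samples. In Ms4a4a, Ms4a8a and Tmem176b stress replicate 2 (square) is the lowest stress sample and lies near the control samples. In Ms4a8a stress replicate 3 (0.759 CPM) also lies nearer to the controls than to stress replicates 1 and 4.

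Ms4a1, which encodes CD20, had the most reads of the whole family, 3769 to 10280 in the control libraries and 1309 to 3470 in the stress libraries. It was at 118.9 to 148.6 CPM and 84.9 to 120.2 CPM (log2 fold change -0.36, 95% interval -0.66 to -0.06, adjusted p = 0.0981, edgeR). On total counts alone Ms4a1 was called down (-1.16, adjusted p = 0.00778, edgeR). On that scale 728 genes were called down, and the median of all tested genes was -0.82. Ms4a2, the IgE receptor subunit, had 17 to 65 counts in the control libraries and 3 to 18 in the stress libraries (log2 fold change -1.05, standard error 0.49, adjusted p = 0.164, edgeR). Ms4a4d (7 to 28 and 0 to 12 counts), Ms4a15 (0 to 14 and 0 to 6) and Ms4a14 (0 to 2 and 0) did not pass the filter on low counts, and without it their adjusted p-values were 0.627, 0.821 and 0.587 (edgeR). Ms4a5, Ms4a10, Ms4a12, Ms4a13 and Ms4a18 had 0 counts in every library.

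The profile of log2 CPM over the 8 samples was compared between genes as a description, in which all points share the same libraries and the difference between the groups. Ms4a6d followed Tmem176b (Pearson's r = 0.938), Tmem176a (0.854), Ms4a4a (0.823) and Ms4a8a (0.789) more closely than its own copies Ms4a6c (0.427) and Ms4a6b (-0.363). Ms4a4b went with Ms4a6b (0.645), and Ms4a4c with Ms4a6c (0.738), while Ms4a4b and Ms4a6c ran against each other (-0.716). Ms4a4b and Ms4a4c, the pair with the most alike coding sequences, had an r of -0.244. Among 10301 other genes with a mean of at least 1 CPM, the closest to Ms4a6d were Vcan, which encodes the matrix proteoglycan versican (0.978; log2 fold change 4.42, standard error 0.66), and Atp6v1b2, which encodes a subunit of the lysosomal proton pump (0.964; log2 fold change 0.36, standard error 0.11). The closest to the others were Lonp2 and Tbxa2r for Ms4a4b (0.966 and 0.939), Haus1 and Scpep1 for Ms4a4c (0.955 and 0.943), Pcca and Cdc16 for Ms4a6b (0.973 and 0.959) and Samhd1 and Igsf8 for Ms4a6c (0.952 and 0.95). With 8 samples many genes reach such values, 10 to 36 of them an r of at least 0.9 for each member.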

How the data were processed

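Peripheral blood RNA was sequenced in 4 control and 4 stress samples. The authors deposited whole-number read counts per gene symbol, without normalization; the submitters' processing notes name HISAT2, featureCounts and the mm10 build, and versions, annotation, strand setting and filters are not given in the sources used here. Counts were analysed in R 4.3.3 with edgeR 4.0.16 (TMM, robust quasi-likelihood test, Benjamini-Hochberg over the 11718 genes that had 10 counts or more in 4 or more samples), checked on simulated data. Standard errors were derived from the quasi-likelihood F statistic. Ratios used counts plus 0.5 and exact permutation tests over 70 assignments of the 8 samples (scipy 1.17.1). Intervals and limits cover the spread between samples or counting error only. The p-values set the difference between the groups against the variation between these samples. Total counts were 25978683 to 39014775 per sample.

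The members and gene lists were chosen with earlier results of these data known. Named are the 7 members, the other Ms4a and Tmem176 rows, the first 2 markers of a list or those at 0, as the text needs them, and the 2 genes closest to each member. Gene models and transcripts come from GENCODE M21 and upstream windows from RefSeq (GRCm38.p6). Alternatives were DESeq2 1.42.0, limma-voom (limma 3.58.1), other normalizations, count filters, call rules and pseudocounts, a replicate block, no haemoglobin genes, Ptprc as reference and leaving out each sample. The labels do not say that a replicate number marks a litter or batch, and same-numbered samples did not deviate together (correlations of -0.16 to 0.06), so the numbers were not taken as pairs.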

Additional observations from a re-analysis of the deposited data

Results flagged for a closer look

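Of 64 sets of 4 samples examined (CPM and counts per 1000 leukocyte reference counts of 11 genes, and 10 ratios, in each group), 1 held a sample far from the others, where chance flags about 1 in 20. It was Ms4a6c in control replicate 3, with 38.7 CPM against 34.8, 35.1 and 35.3 CPM in the other control samples.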

How the results depend on the processing

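The rise of Ms4a6d kept its direction in every fit run, above 1 on the log2 scale and at an adjusted p of at most 0.0372, but not always its call: limma-voom gave 1.72, total counts alone 1.015 and the replicate block 1.77, each with 0 members called up. The log2 fold change of Ms4a6c turned to -0.015 with limma-voom, -0.71 on total counts alone and -0.023 with the replicate block, and the cause was not tested. Per count of Ptprc alone, Ms4a4b (0.051), Ms4a4c (0.10), Ms4a6b (0.10) and Ms4a6c (0.17) turned positive. The 11718 tested genes gave 198 calls up and 2 down. DESeq2 gave 307 and 12, total counts alone 14 and 728, an adjusted p below 0.05 at any fold 1222 and 432, and one below 0.01 at any fold 538 and 38. Upper-quartile factors gave 4 down, no count filter 4 down, and the replicate block 189 up and 1 down. Leaving out 1 sample gave 76 calls up (without control replicate 2) to 340 (without control replicate 4) and 1 to 8 down, with 0 to 1 members called up. It moved the log2 fold change of Ms4a6d between 1.58 and 2.13, of Ms4a6c between -0.13 and 0.19, of Ms4a4c between -0.16 and 0.032 (both turned), and of Ms4a4b and Ms4a6b between -0.20 and -0.06. The 4 ratios with Ms4a6d differed by 1.56 to 2.32 without 1 sample. Ratios with a pseudocount of 1 or 5, RLE factors, leaving out haemoglobin genes and at least 10 counts in all samples changed no call of a member. For the replicate block, same-numbered samples correlated at -0.16 to 0.06, and not every sample was closest to its own number. Depth limits Ms4a3, with 0 counts, Ms4a7, tested only without the count filter (adjusted p = 0.108, edgeR) and by DESeq2, and Ms4a6d, with 14 to 118 reads per library.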
